A study of Pinus pinaster with 12 samples.

Results

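The transcripts described here carried an m6A peak in the list that the authors deposited for water-treated roots and none in their list for ammonium-treated roots. They number 1002 of the 253670 transcript IDs of the series and 1002 of the 5968 that had a peak with water. They hold 1081 of the 6637 water peaks. Another 4966 transcripts had a peak in both lists and 1109 in the ammonium list only. They were chosen by the authors' peak lists, that is by IP over input in each treatment, so the values that follow describe them, and nothing measured on the same libraries is an independent test of the choice.

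The tissue was root of maritime pine (Pinus pinaster, Segura-Alcaraz provenance), from seedlings aged 1 month that had 3 days of acclimation and were then watered with 80 mL of 3 mM ammonium chloride or of water. Roots were collected at 24 h, and the experiment was run 3 times. Polyadenylated RNA was fragmented and either precipitated with an antibody against m6A (IP) or left as input. The groups, with 3 libraries each, were IP from ammonium roots, IP from water roots, input from ammonium roots and input from water roots. How many seedlings made up a library is not stated in the labels, and there was 1 peak list for each treatment, with no replicates.

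N6-methyladenosine, or m6A, is a methyl mark placed on adenosines of messenger RNA by a methyltransferase complex, removed by demethylases of the ALKBH family and bound by proteins with a YTH domain. In Arabidopsis it is found mostly near the stop codon and in the 3′ untranslated region, and it bears on the stability, processing and translation of the RNA. Precipitation recovers RNA fragments with the mark, and a peak is a stretch of a transcript where IP reads stand above input reads. The files pair no gene name or sequence with the transcript IDs, so the transcripts are called by ID, and their genes, coding regions and sequences were not used here.

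Library totals were 65539363 to 73185176 counts in the ammonium IP, 57945305 to 63522543 in the water IP, 74257255 to 79703198 in the ammonium inputs and 69030249 to 81534388 in the water inputs. Replicates 1 and 2 of the water IP stood apart from the other IP libraries, on either side. Across transcripts the mean correlation with the inputs, on log2 levels, was r = 0.726 in replicate 1 and 0.518 in replicate 2, against 0.603 to 0.621 in the ammonium IP and 0.632 in replicate 3 of the water IP (transcripts are not independent replicates). The IP change by peak list, the fitted medians of the change in IP and in ratio, the counts from the main test and the summed levels are also given with single libraries left out. Other values, such as those by fold, IP level or input level, counts without overlap and IP levels of named transcripts, rest on all libraries.

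The peaks of the water list alone were mostly single, narrow and of low fold. A single peak was listed on 939 of the 1002 transcripts, 2 on 54, 3 on 6, 4 on 2 and 8 on 1, so 6.29% had several, against 10.2% (water peaks) and 8.14% (ammonium peaks) of the transcripts of both lists and 3.34% of those of the ammonium list alone. The median width was 101 bases (quartiles 99 and 150), where water peaks of transcripts in both lists had a median of 200 and ammonium-only peaks one of 101. Widths fell in steps of about 50 bases. To the nearest step 55.0% of the peaks were 100 bases wide, 25.2% were 150, 11.5% were 200 and 8.33% were 250 or more, against 46.6% of 250 or more among water peaks of both lists.

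The fold enrichment, the authors' ratio of IP over input at the peak, was low as well. In the authors' deposited table its median was 4.64 for these peaks (quartiles 3.33 and 7.00), against 15 for water peaks of transcripts in both lists and 5.00 for peaks of the ammonium list alone. It was under 5 at 584 peaks (54.0%) and 20 or more at 82 (7.59%). Of water peaks of both lists, 13.7% were under 5 and 41.6% were 20 or more. Each treatment had a single list, so the lists give no test of whether a peak was lost with ammonium. The ammonium IP had more reads than the water IP.

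**Figure D1:**
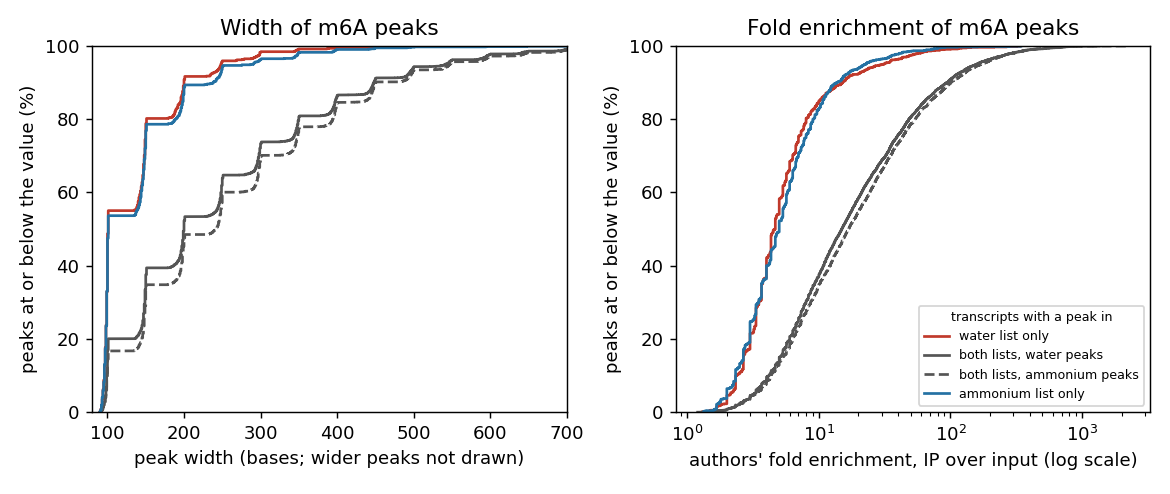
Cumulative share of m6A peaks (%) by width in bases (left) and by the authors' fold enrichment on a log axis (right), for peaks of the water list alone, of transcripts in both lists (1 line for each list) and of the ammonium list alone. The lines of the 2 single lists run close together, with a median width of 101 bases in each, and those of both lists run to wider peaks and higher folds.

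Wider peaks had somewhat higher folds. The median fold was 4.33 at the 595 peaks nearest to 100 bases, 4.82 at the 396 nearest to 150 or 200 bases and 6.00 at the 90 wider ones. The widest peak, 585 bases at positions 147 to 731 of pp_71424, had a fold of 11.2, and the narrowest, 90 bases at positions 90 to 179 of pp_129999, had a fold of 2.71, both in the authors' deposited table.

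Positions are counted from 1 at the start of each transcript ID. The median peak started at base 335 and ended at base 463, against 443 and 692 for water peaks of transcripts in both lists. It lay within the first 100 bases by its start at 18.5% of the peaks and beyond base 1000 at 19.3%, where water peaks of both lists had 17.7% and 27.6%. Transcript lengths were not used here, so a position near a transcript's end could not be recognised.

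Peaks that shared a transcript lay close together. The 79 gaps between neighbouring peaks had a median of 196 bases and ran from 93 to 2230 bases, with 20 gaps of up to 100 bases. On 42 of the 63 transcripts with several peaks, all peaks were listed with the same p-value. The transcript pp_145535 held 8 peaks, between positions 51 and 4467, with folds of 1.67 to 7.88 in the authors' deposited table. The other transcripts with the most peaks were pp_94024 with 4 between positions 3778 and 4772, pp_95142 with 4 between 443 and 1916, and pp_140386 and pp_93250, the 2 with the highest folds among 6 transcripts with 3 peaks.

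These transcripts stayed readily detected in the ammonium IP although they had no peak there. At least 1 read was present in all 3 ammonium IP libraries for 1000 of the 1002, and at least 10 reads in all 3 for 975; in the water IP the numbers were 1002 and 989. The fewest reads summed over the 3 libraries were 26 in the ammonium IP and 51 in the water IP. Input RNA was scarcer: 131 transcripts had no read in any of the 6 inputs, 189 had none in the ammonium inputs and 180 none in the water inputs. In bulk roots, fewer cells of a type and less RNA per cell cannot be told apart in such levels.

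Levels are in CPM, reads of a transcript scaled to a library of 1000000 reads. The median transcript of the group had 1.75, 1.67 and 1.95 CPM in the ammonium IP libraries, 2.64, 2.69 and 2.76 in the water IP, 0.229, 0.330 and 0.314 in the ammonium inputs and 0.294, 0.271 and 0.319 in the water inputs. The ammonium IP libraries all lay below the water IP libraries, and the 2 input groups overlapped. The 3 water IP libraries lay close together in this measure.

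Summed over all 1002, the transcripts took 1.06% ± 0.0187 of the reads of the ammonium IP and 1.21% ± 0.0387 of those of the water IP, 1.19% ± 0.0120 in the ammonium inputs and 1.20% ± 0.0392 in the water inputs (SD, n = 3). The log2 ratio of ammonium over water was -0.19 in the IP, larger than the SD of 0.0375 between libraries, and -0.015 in the input, within its SD of 0.0347. Both signs turned when trimmed mean of M-values (TMM) library sizes over the 12 libraries replaced the totals, to 0.13 in the IP and 0.034 in the input. A sum is set by its largest members: without the 10 transcripts with most IP reads the IP value was -0.26.

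**Figure D2:**
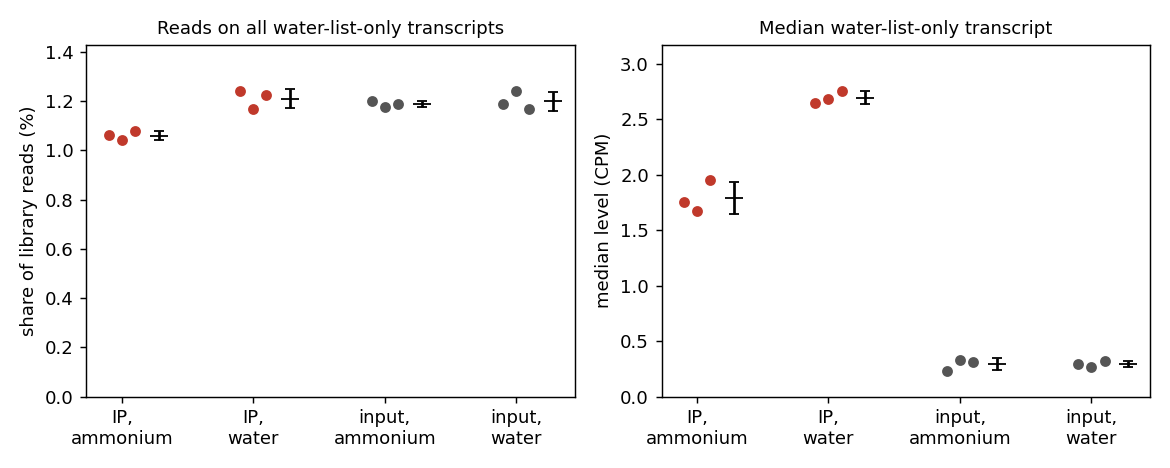
Share of library reads (%) on all 1002 transcripts (left) and level in CPM of the median transcript (right), with 1 point for each library and, beside the points, mean and SD of the 3 libraries. In both panels the ammonium IP libraries lie below the water IP libraries, and the inputs of the treatments overlap.

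The group split by abundance into scarce transcripts that stood far above input in the IP and abundant ones that did not. With a group of no reads set at 3 reads over its libraries, the median log2 IP over input was 2.99 in ammonium roots (quartiles -0.32 and 5.66) and 3.32 in water roots (quartiles -0.01 and 6.39). Transcripts of both lists had 1.48 and 1.37, those of the ammonium list alone 2.10 and 1.96, and those without a peak -0.50 and -0.21. These classes differed in abundance. The median transcript of both lists had 10.5 to 11.8 CPM in the inputs, that of the group 0.229 to 0.330. The input was set at 3 reads for 189 and 180 of the 1002, and for 290 and 285 of the 4966 of both lists. The classes were not compared at like input level. Per library, the median over the mean input was 2.73, 2.86 and 2.90 in the ammonium IP and 3.11, 3.54 and 2.94 in the water IP, with replicate 2 of the water IP the highest.

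Abundance in the input ordered these values. The 463 transcripts with a mean input above 0 and up to 1 CPM had a median log2 IP over input of 5.05 in ammonium and 5.79 in water roots, and the 131 with no input read had lower bounds with a median of 5.68 and 6.43. The 195 with 1 to 10 CPM had -0.20 and 0.21, the 193 with 10 to 100 CPM had -1.25 and -0.89, and the 20 above 100 CPM had -1.75 and -1.33. In the whole-transcript counts, IP lay below input for 291 transcripts (29.0%) in ammonium and 252 (25.1%) in water roots. A peak is local, so it can be listed on a transcript whose reads as a whole are fewer in the IP. The Spearman rho between mean input and log2 IP over input in water was -0.869 over the 1002 transcripts, a description in which the input enters both measures.

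**Figure D3:**
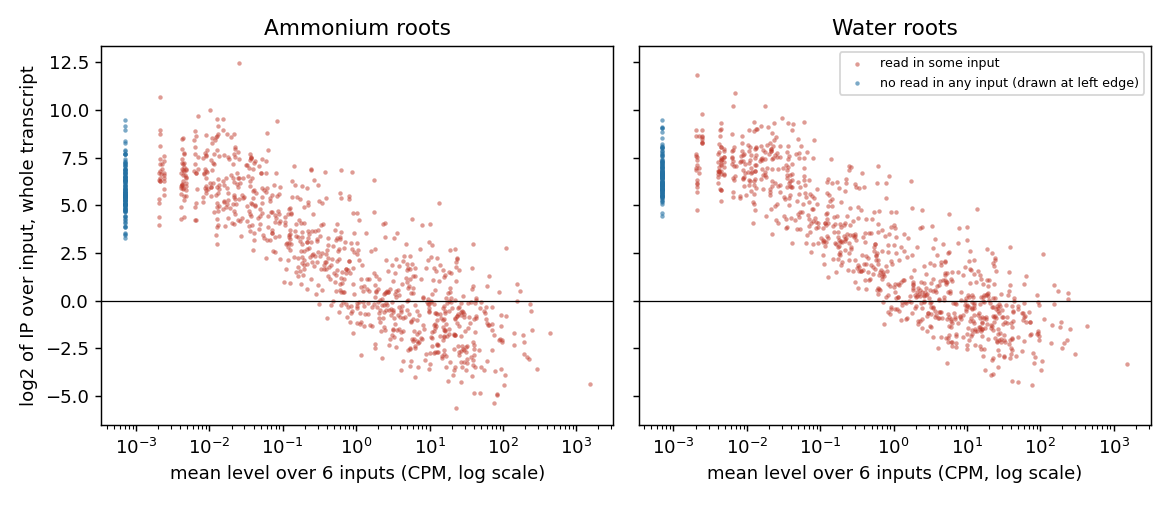
Log2 of IP over input for whole transcripts against the mean input level in CPM (log axis) for the 1002 transcripts, in ammonium roots (left) and water roots (right). Points fall with abundance, from medians above 5 at up to 1 CPM to medians below -1 above 100 CPM, and transcripts with no input read are drawn at the left edge at their lower bound.

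With edgeR's quasi-likelihood test, 688 of the 983 transcripts that passed the filter on low counts in ammonium roots were called higher in the IP than in the input (called means a Benjamini-Hochberg adjusted p under 0.05), where 37.9% of all tested transcripts were. Another 170 were called lower, against a background of 48.5%. In water roots 695 of 993 were called higher (background 35.9%) and 101 lower (background 32.4%). The peaks came from the same contrasts, so nothing is read from these counts. Without overlap between libraries, IP lay above input at 642 tested transcripts in ammonium roots (background 34.4%) and below it at 231 (background 54.7%). In water roots it lay above at 670 (background 34.1%) and below at 178 (background 48.1%). Of all 1002, 646 were above in both treatments (background 31.1% of the 148273 transcripts tested for the ratio), 169 were below in both (background 43.3%), and 0 were above in one treatment and below in the other (background 0.0411%).

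Among the transcripts with the highest folds the IP libraries of the treatments overlapped, except in pp_195473, where the ammonium IP was lower. The highest fold, 341 at positions 144 to 335 of pp_252409 in the authors' deposited table, belongs to a transcript with 158, 92.7 and 149 CPM in the ammonium IP against 135, 151 and 133 in the water IP. Its inputs were 1.60, 1.67 and 1.76 CPM with ammonium and 1.36, 2.01 and 1.97 with water. The treatments overlapped in IP and in input, and both IP groups were far above their inputs.

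Next came pp_195473, pp_140111, pp_199313 and pp_72741, with folds of 318, 268, 214 and 143 in the authors' deposited table. The transcript pp_195473 had 35.5, 28.8 and 32.0 CPM in the ammonium IP against 51.1, 36.8 and 37.3 in the water IP, and 4.60, 4.03 and 3.73 in the ammonium inputs against 5.63, 4.87 and 5.71 in the water inputs. Both its IP and its input were lower with ammonium without overlap. The transcript pp_140111, with its peak at positions 46 to 224, had 548, 369 and 431 CPM in the ammonium IP against 360, 421 and 380 in the water IP, and 14.1, 12.9 and 11.97 in the ammonium inputs against 13.7, 15.2 and 13.3 in the water inputs. Here the treatments overlapped in both. By contrast pp_72741, with a peak of 100 bases at positions 3324 to 3423, had 21.0 ± 2.89 CPM in the ammonium IP and 31.1 ± 12.2 in the water IP, below its 39.4 ± 10.4 in the ammonium inputs and 46.2 ± 5.18 in the water inputs (SD, n = 3). That gap is on the scale of library totals. In the edgeR fit with TMM factors its log2 IP over input was -0.36 (SE 0.19) in ammonium and -0.04 (SE 0.30) in water roots, and it was called in neither.

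Over the group, the fold at the best peak and the log2 IP over input of the whole transcript in water had a Spearman rho of -0.0364 (n = 1002 transcripts, description only). The 79 transcripts with a best fold of 20 or more had a median log2 ammonium over water of 0.03 in the IP, and 45.6% of them were lower with ammonium. The 402 with a best fold of 5 to under 20 had -0.49 (87.1% lower), the 502 with 2 to under 5 had -0.63 (86.9% lower) and the 19 under 2 had -0.48 (73.7% lower). On the scale of library totals, the shift of the IP was seen in each class of fold under 20 and not in that of 20 or more. The class of 20 or more also had the highest input, with a median of 12.6 CPM. The medians were 0.484 at 5 to under 20, 0.112 at 2 to under 5 and 2.17 under 2. Fold and abundance were not separated here.

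At the other end of the folds stood pp_217295, with 1.30 at positions 100 to 199, and pp_174967, with 1.33 at positions 1670 to 1768, in the authors' deposited table. Just outside the group, the lowest ammonium folds among transcripts of both lists were 1.33 at positions 1086 to 1185 of pp_165805 and 1.35 at positions 99 to 198 of pp_202654. The folds of the first 2 are from the water list and those of the last 2 from the ammonium list, so their sizes are not compared. In the water list pp_174967 also had a peak of fold 4.00 at positions 1179 to 1277. There the folds of pp_165805 and pp_202654 were 10.0 and 2.01.

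On the scale of library totals, the IP levels of the group were lower with ammonium at most transcripts. Those of the ammonium-only group were lower and higher in like numbers. The TMM factors over the 12 libraries were 0.697, 0.720 and 0.760 in the ammonium IP and 1.00, 0.899 and 0.835 in the water IP. With TMM sizes the ratios of every class would be higher, and the classes were not compared on that scale. The median log2 ammonium over water in the IP, from CPM over all 1002, was -0.52 (quartiles -0.92 and -0.17), and 836 transcripts (83.4%) were lower. Transcripts of both lists had 0.04 (44.5% lower), those of the ammonium list alone 0.01 (48.9% lower) and those without a peak -0.63 (73.4% lower). Without replicate 1 of the water IP the medians were -0.51 for the group, 0.03 for both lists, 0.05 for the ammonium list alone and -0.50 without a peak, so the group and the transcripts without a peak changed order. Without replicate 2 they were -0.42, 0.05, 0.04 and -0.62. The rule used this contrast through the peak lists, so these values carry no test.

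**Figure D4:**
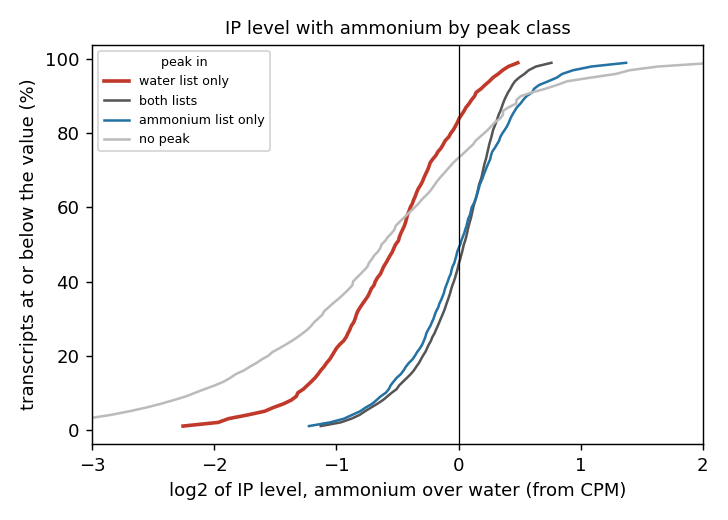
Share of transcripts (%) at or below each log2 ratio of IP level, ammonium over water, from mean CPM, for 4 classes of transcripts by peak list. The water-list-only line crosses 0 at 83.4% of its transcripts, and the lines of both lists and of the ammonium list alone cross it near their middle.

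On the scale of library totals, the shift went with the IP level. Transcripts with no read in 1 of the IP groups were left out here. Among those without a peak, 25029 had no read in the ammonium IP and 11442 none in the water IP. By mean level over the 6 IP libraries, the median log2 ammonium over water was -0.81 for the 215 transcripts of up to 1 CPM, -0.59 for the 355 with 1 to 3 CPM, -0.48 for the 237 with 3 to 10 CPM and -0.11 for the 195 above 10 CPM. Transcripts without a peak had -0.78, -0.58, -0.26 and 0.07 in the same ranges. Those of both lists had -0.17, -0.16, -0.12 and 0.11, and those of the ammonium list alone 0.15, -0.06, -0.07 and 0.10. Up to 3 CPM the values of the group were thus near those of transcripts without a peak that had reads in both IP groups. In each range they were below those of both lists.

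All 1002 transcripts passed the filter for the edgeR comparison of ammonium with water in the IP, and 0 were called, as was 0 (0%) of the 99846 transcripts tested. The fitted median was -0.30 for the group and -0.23 for all tested, and -0.52 and -0.45 when the fit used library totals without TMM factors. Without replicate 1 of the water IP they were -0.38 and -0.16, and without replicate 2 they were -0.16 and -0.07, where 4 of the group were called (0.399%, background 0.0313%). The group was not the lower of the pair without replicate 3 of the water IP, at -0.35 and -0.38, or without replicate 2 of the ammonium IP, at -0.19 and -0.25. An unadjusted p under 0.05 was reached by 35 higher and 87 lower transcripts of the group (background 5.25% and 5.20%), and DESeq2 called 1 higher and 9 lower (background 0.160% and 0.156%). The groups of libraries did not overlap at 177 lower transcripts (17.7%, background 11.3%) and 25 higher ones (2.50%, background 4.45%). The rule used this contrast, and nothing is read from these shares.

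By p, the lower side was led by pp_57729, pp_222322 and pp_167181. The transcript pp_222322, with a peak at positions 48 to 190 and a fold of 6.67 in the authors' deposited table, had 9.95, 3.42 and 7.03 CPM in the ammonium IP against 49.3, 23.0 and 74.0 in the water IP, a fitted log2 fold change of -2.62 (SE 0.47). Its 6 inputs held 1 read in all, in replicate 3 of the ammonium inputs. Every ammonium IP library lay below every water IP library.

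The transcripts pp_57729 and pp_167181 were abundant in the input. In the IP pp_57729 had 15.1, 24.6 and 17.6 CPM with ammonium against 91.7, 57.7 and 62.8 with water (log2 fold change -1.66, SE 0.23), without overlap. In the input it had 144, 194 and 140 CPM with ammonium against 302, 465 and 131 with water, where the groups overlapped and the water libraries differed more than 3-fold. The same order of input libraries, with replicate 2 of the water inputs highest and replicate 3 lowest, was seen in pp_167181 (212, 361 and 107 CPM with water) and in pp_98570 (333, 566 and 148 CPM with water), another of the most abundant members. The IP of pp_167181 was 31.6, 37.3 and 34.6 CPM with ammonium against 124, 58.7 and 129 with water (log2 fold change -1.37, SE 0.27).

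On the higher side stood pp_79280, pp_150927 and pp_105540. The transcript pp_79280 had 157, 166 and 194 CPM in the ammonium IP against 86.9, 92.1 and 114 in the water IP (log2 fold change 1.02, SE 0.19), although its peak, at positions 343 to 538 with a fold of 5.20, was listed with water alone. The IP libraries of the treatments did not overlap. Its input was higher as well, at 24.3, 26.4 and 28.7 CPM with ammonium against 17.97, 14.96 and 19.6 with water. The transcript pp_150927 had 23.8 ± 6.14 CPM in the ammonium IP and 14.8 ± 0.876 in the water IP, with inputs of 0.993 ± 0.282 and 1.07 ± 0.0839 (SD, n = 3).

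The highest ammonium IP levels of the group belonged to pp_134575, pp_140111 and pp_236928. The first, with a peak of 347 bases and a fold of 48.6 at positions 544 to 890, had 723, 755 and 781 CPM in the ammonium IP against 536, 589 and 679 in the water IP. Its inputs were 114, 109 and 107 CPM with ammonium and 107, 99.3 and 120 with water. The IP libraries with ammonium were all above those with water, and the inputs overlapped.

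The 8-peak transcript pp_145535 had 13.5, 10.6 and 12.8 CPM in the ammonium IP against 47.7, 16.0 and 48.9 in the water IP. Its inputs were 5.26, 12.01 and 12.01 CPM with ammonium and 12.1, 9.15 and 14.6 with water. The IP groups did not overlap, replicates 1 and 3 of the water IP stood well above the rest, and the inputs overlapped. The transcript pp_140386, with peaks at positions 737 to 1620, had 2.66 ± 0.603 CPM in the ammonium IP and 7.16 ± 1.29 in the water IP (SD, n = 3) and no read in any input.

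The abundant end of the group was led by pp_66319, the member with the highest input. It had 79.4, 90.4 and 70.6 CPM in the ammonium IP against 102, 55.6 and 271 in the water IP, and 1764, 1445 and 1697 in the ammonium inputs against 1435, 1304 and 1519 in the water inputs. Its IP lay far below its input in both treatments, and its peak had 97 bases at positions 480 to 576. The next in input level were pp_203935, pp_98570, pp_245672 and pp_155353. The water IP of pp_155353 had 501, 138 and 293 CPM, the ammonium IP 161, 186 and 154, so the water libraries spread on either side of the ammonium ones.

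**Figure D5:**
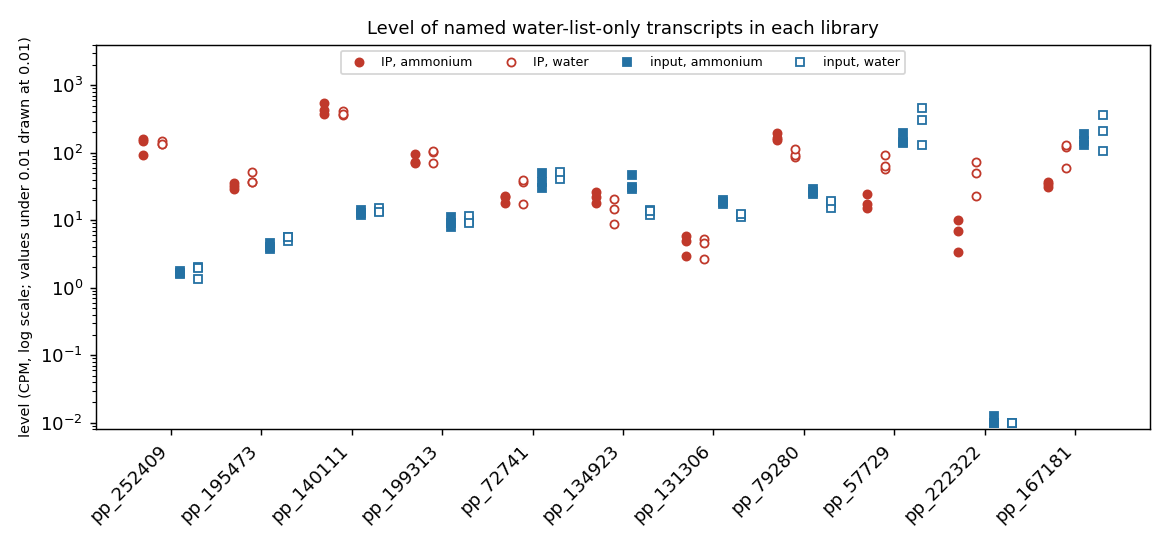
Level in CPM (log axis) of 11 transcripts of the group in each library, with 3 points for each of IP with ammonium, IP with water, input with ammonium and input with water. From left to right they are those with the highest folds, those with the smallest p for a rise in the input and those with the smallest p for a lower IP; in the last 3 the ammonium IP lies below the water IP.

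The median input level of the group differed little between treatments. From CPM, over the 871 transcripts with an input read, the median log2 ammonium over water was -0.05 (quartiles -0.42 and 0.20). Of these, 8.61% were at least 2-fold higher and 9.41% at least 2-fold lower. The shares were 2.44% and 2.63% in both lists and 9.41% and 11.8% without a peak. The input libraries also served as background of the peak calls, so this comparison is only in part independent of the choice. Of the 1002 transcripts 572 passed the filter, and 430 were too scarce to be tested. With edgeR 4 were called, all higher with ammonium, which is 0.699% of those tested. Of all 114887 transcripts tested 0.424% were called, 0.383% higher and 0.0409% lower, and the share of the group is near this background. An unadjusted p under 0.05 was reached by 35 higher and 29 lower transcripts (background 6.02% and 4.33%), and DESeq2 called 10 higher and 5 lower (background 1.78% and 0.695%). The libraries did not overlap at 37 higher and 51 lower of the 572 (background 6.92% and 8.90%). The fitted median log2 fold change was 0.00 for the group and 0.00 for all tested. These p-values measure the spread between 3 libraries that the labels describe as separate runs of the experiment.

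The 4 that rose were pp_134923, pp_131306, pp_79280 and pp_245668; the last was outside the naming rule and is named because it completes the count. In the input pp_134923 had 28.6, 46.9 and 31.3 CPM with ammonium against 14.3, 11.9 and 13.6 with water, without overlap (log2 fold change 1.48, SE 0.18, adjusted p = 0.0166, edgeR). Its IP was 18.0, 26.5 and 22.2 CPM with ammonium against 21.0, 8.87 and 14.7 with water, where the groups overlapped. Its peak, with a fold of 38.3 in the authors' deposited table, lay at positions 581 to 726.

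The input of pp_131306 was 17.4, 19.9 and 18.5 CPM with ammonium against 12.03, 11.0 and 12.2 with water (log2 fold change 0.71, SE 0.10, adjusted p = 0.0176, edgeR). For pp_79280 the input rose with a log2 fold change of 0.65 (SE 0.10, adjusted p = 0.0349, edgeR). The input of pp_245668 was 127, 107 and 117 CPM with ammonium against 67.6, 55.9 and 85.1 with water (log2 fold change 0.81, SE 0.13, adjusted p = 0.0350, edgeR). In the IP it had 10.2, 9.88 and 9.77 CPM with ammonium against 44.4, 5.23 and 19.7 with water, so the water IP was spread over both sides. In all 4 the 3 ammonium inputs were above the 3 water inputs.

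The calls in the input were lost in several fits with a library fewer, while the folds of those transcripts stayed of like size. Without replicate 1, 2 or 3 of the water inputs 0, 0 and 1 of the group were called (background 0.0327%, 0.0744% and 0.209%). Leaving out replicate 1, 2 or 3 of the ammonium inputs gave 25 (12 higher, 13 lower), 1 and 2, with backgrounds of 4.08%, 0.253% and 0.191%, and the 25 are 4.23% of those tested. Over the alternatives the log2 fold change of pp_134923 ran from 1.22 to 1.60, that of pp_131306 from 0.66 to 0.75, that of pp_79280 from 0.55 to 0.70 and that of pp_245668 from 0.67 to 0.93. On the lower side no transcript passed. The smallest p there belonged to pp_233836, with 5.75, 3.25 and 4.27 CPM in the ammonium inputs against 8.50, 7.43 and 8.75 in the water inputs (log2 fold change -0.84, SE 0.19, adjusted p = 0.124, edgeR), followed by pp_164221 and pp_86183. All 3 passed with DESeq2.

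No transcript of the group was called for a change of the IP over input ratio with ammonium, as with 0 (0%) of the 148273 tested with edgeR, and DESeq2 called 0 of the group (background 0.0627%). An unadjusted p under 0.05 was reached by 38 higher and 36 lower transcripts (background 3.44% and 5.40%). The rule is a comparison of this ratio between the lists, so the values are a description. The fitted median of the log2 change was -0.12 for the group against -0.22 for all tested, and the group lay above all tested in every fit with a library left out except that without replicate 1 of the water IP, with -0.21 against -0.01. Over those fits the median of the group ran from -0.21 to -0.016, the highest value without replicate 3 of the water IP.

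The smallest p in the lower direction belonged to pp_228070, pp_152572 and pp_228621, whose inputs held few reads. For pp_228070 they were 4, 8 and 8 reads in the ammonium inputs against 0, 0 and 0 in the water inputs. Its IP had 3.41, 8.13 and 1.43 CPM with ammonium against 3.89, 12.6 and 7.66 with water. In the higher direction pp_183668 had 23, 26 and 14 reads in the ammonium IP against 30, 30 and 32 in the water IP, and 0 reads in the ammonium inputs against 4, 2 and 4 in the water inputs. Such counts are too few for a fold, and pp_150927, described above, was the second on that side (log2 change 1.04, SE 0.32), with pp_115719 the third.

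Input and IP moved in opposite ways without overlap in 3 of the 1002 transcripts of the group, all with a higher input and a lower IP with ammonium (background 0.228% of the 148273 transcripts tested for the ratio): pp_69543, pp_187621 and pp_217295. The first 2 had at most 9 reads in any input and were named after their values were seen. Both input and IP were higher without overlap in 6 of the 1002 (background 0.639%) and both lower in 16 (background 1.14%). The rule used the IP contrast, and nothing is read from these counts.

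Neighbouring ID numbers were looked up because IDs that come from the same gene could share reads. Of the 1002 transcripts, 116 (11.6%) had the ID number next above or below in the ammonium list, against 18.3% of transcripts in both lists, 13.3% of the ammonium list alone and 4.30% of those without a peak. These made 125 pairs, and in 57 the peaks overlapped in their transcript positions. Members described above were among the 57: pp_252409 shared 147 positions with pp_252408, pp_199313 shared 121 with pp_199314, and pp_150927 shared 188 with pp_150928. So for these members, the highest fold included, the next ID had an ammonium peak at overlapping positions. For pp_57729 and pp_57730 the positions did not overlap. In 19 pairs the neighbour had its peak in the ammonium list alone, and in 9 of these the positions overlapped, as for pp_173973 and pp_173972 with 100 shared positions and pp_196145 and pp_196144 with 101. Whether such pairs are the same RNA under separate IDs was not tested.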

How the data were processed

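Read counts per transcript ID, deposited by the authors without normalization, were used for 12 libraries. The submitters' processing notes name bcl2fastq and BWA; no source used here gives versions, reference sequences, strandedness or the handling of reads that match several transcripts. Per the file headers, each deposited peak has a fold enrichment, the authors' ratio of IP to input, and the authors' p-value; the peak caller is not named. Starts were counted from 0 in the files and are given counted from 1.

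Counts were tested over the whole table with edgeR 4.0.16 in R 4.3.3 (TMM scaling, default filter with a minimum of 10 counts and a total of at least 15, robust quasi-likelihood F tests, two-sided, Benjamini-Hochberg over all transcripts tested, threshold 0.05), with 6 libraries for each comparison and all 12 for the change of ratio. DESeq2 1.42.0 was an alternative. The edgeR fit of ammonium against water in the input was tried on simulated counts. Changes were set there only at transcripts above a minimum mean count, with a fixed spread between libraries. The other fits were not simulated. CPM was computed from library totals, and ratios of levels set a group with no read at 3 reads. The medians by IP level instead left out transcripts with no read in an IP group.

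Named transcripts were those with the highest and lowest folds, the widest and narrowest peak, the most peaks, the highest input and ammonium IP levels and the smallest p in each direction of the comparisons of treatments, and those of both lists with the lowest ammonium folds; the rule also asked for members with no read in the ammonium IP, of which there were 0. The members and rules were chosen with earlier results of these data known. The chi-square per degree of freedom between replicate libraries was 10.6 to 51.4 (1 expected from sampling alone), so no 2 libraries were taken as the same. The deviations of same-numbered libraries had a positive r in every pair for IP and input of ammonium roots (0.192, 0.132 and 0.152). This also held between treatments in the input (0.0058, 0.196 and 0.114) and in the IP (0.121, 0.114 and 0.011). For IP and input of water roots r was 0.0573, 0.0630 and -0.0751. The main fits had no term for the replicate number, so their p-values leave this pairing out. Fits with such a term were an alternative, called the replicate block.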

Additional observations from a re-analysis of the deposited data

Results flagged for a closer look

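In 3 of the 1002 transcripts every input library was higher and every IP library lower with ammonium (background 0.228%). The transcript pp_217295 was the 1 with many input reads. It had 3.88, 3.03 and 3.45 CPM in the ammonium IP against 7.26, 3.98 and 6.92 in the water IP, and 31.6, 30.9 and 32.6 in the ammonium inputs against 26.8, 25.6 and 28.5 in the water inputs. The log2 change of its IP over input ratio was -0.77 (SE 0.30), which did not pass (adjusted p = 0.556, edgeR). Its peak had the lowest fold of the group. The other two had few input reads. For pp_69543 there were 25, 22 and 33 reads in the ammonium IP against 47, 112 and 48 in the water IP, and 1, 1 and 1 in the ammonium inputs against 0, 0 and 0 in the water inputs (fitted log2 change of the ratio -4.11, SE 1.42, adjusted p = 0.556, edgeR). For pp_187621 there were 297, 265 and 377 reads in the ammonium IP against 421, 564 and 447 in the water IP, and 3, 2 and 9 in the ammonium inputs against 2, 1 and 0 in the water inputs (-2.55, SE 0.85, adjusted p = 0.556, edgeR). At so few reads the fitted values depend on the prior count and are no bound.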

How the results depend on the processing

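The called transcripts of the group in the input numbered 4, and 2 with library totals (0.298% of all transcripts tested) or with a filter of 50 reads in 3 libraries (0.347%), 17 without a filter (1.20%) and 15 with DESeq2 (2.47%), and 0 to 25 when single libraries were left out. In the IP, where 0 were called, 27 were called without a filter (0.877% of all), 10 with DESeq2 (0.316%), 1 with the replicate block (pp_222322, 0.00801%) and 0 to 4 when single libraries were left out; the 4, without replicate 2 of the water IP (0.0313%), were pp_145535, pp_167181, pp_219690 and pp_237810, chosen after their values were seen. For the change of ratio the range was 0 to 1, the 1 being pp_245668 without that library (0.0178%). Leaving out single libraries gave 688 to 699 transcripts higher in the IP than in the input in ammonium roots and 646 to 716 in water roots. No other setting moved these counts beyond 1.5 times. Over all transcripts, those fits called 48155 to 51311 of 134182 to 136754 higher in ammonium roots. In water roots they called 45408 to 50543 of 138100 to 142991. The replicate block gave 5 calls in the input (the 4 and pp_172365, 0.780% of all) and 0 for the ratio. With it 693 and 666 were higher in the IP than in the input in ammonium and water roots. Over all transcripts it called 45441 of 123957 and 41197 of 127525 higher.

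The summed log2 ratios, ammonium over water, were -0.015 in the input and -0.19 in the IP, and with TMM sizes 0.034 and 0.13; IP over input was -0.16 in ammonium and 0.01 in water roots, and 0.58 and 0.48 with TMM sizes. Without the 10 members with most IP reads the IP value was -0.26, and IP over input was -0.43 in ammonium and -0.18 in water roots. Single libraries left out gave -0.035 to 0.011, -0.22 to -0.17, -0.18 to -0.15 and -0.0065 to 0.039 in the same order. With only peaks of fold 5 or more in each list the rule gave 684 transcripts with 705 peaks and a median fold of 7.00, and with peaks at or below the median p of their list a median fold of 8.36; 481 and 352 of the 1002 remained. For 7 transcripts in the input, those called and the lower ones named by smallest p, no alternative turned the direction. The direction of the other members was not followed over the alternatives. The causes were not tested. At the few input reads of most members, the depth limits which changes could be detected.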
